A study of Mus musculus with 12 samples.

Results

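The 8 genes described here are Apln, Aplnr, Esm1, Unc5b, Kcne3, Mcam, Nid2 and Plaur, taken by their symbols from the 50559 genes of the retinal count table. Apln and Aplnr encode the peptide apelin and its receptor, and the other 6 are markers of sprouting endothelial tip cells. RNA was measured in retinas of wild-type C57BL6/J mice of both sexes at day 28, in 4 groups of 3 libraries each. IgG retinas came from pups given 30 µg of a rat IgG isotype control at day 1, and APB5 retinas from pups given 30 µg of APB5, a rat antibody against PDGFRβ, the receptor through which endothelial PDGFB recruits pericytes. IgG+Mino and APB5+Mino retinas came from mice given these same antibodies and then minocycline, a tetracycline that dampens microglial activation, at 45 mg/kg daily from day 5 to day 27. All mice had thus received an antibody at day 1, no group was left uninjected, and the gene for PDGFRβ was intact in every group. By the study's description the 3 libraries of a group stand for 3 mice, although the labels do not say which animal gave which library.

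Sprouting vessels are led by tip cells, which follow VEGF gradients with filopodia, while stalk cells behind them divide and form the lumen. Tip cells switch on secreted proteins such as apelin and Esm1, guidance receptors such as Unc5b, and proteins that open or rebuild the basement membrane, such as Plaur and Nid2. In the mouse retina this programme is known to run during the first postnatal weeks, and apelin made by tip cells acts on its receptor on neighbouring stalk and venous cells.

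Levels are given in CPM, a gene's reads relative to the library total after scaling with TMM factors. Total counts were 52740545 to 59411044 per library, and 3 counts, used here as a floor, corresponded to 0.0448 to 0.0587 CPM. APB5 replicate 3 stood apart. Its score on the first principal component was 91.0, against −36.8 to 15.1 in the other 11 libraries. In CPM summed over fixed marker lists, it had 560 for microglia and macrophages against 57.9 and 70.4 in the other APB5 retinas, 499 against 143 and 146 for pericytes and smooth muscle, 476 against 68.1 and 73.3 for pigment epithelium, and 12094 against 48369 and 56137 for rods. Its endothelial sum, over 15 genes such as Pecam1, Cdh5 and Cldn5, was 293 against 219 and 232, and all 15 were detected in every group. The part of these cell types in its member levels was not tested. Results include it unless stated, and several are also given without it. Xist was high in all 3 IgG libraries, in APB5 replicate 3 and in APB5+Mino replicate 3, with 47210 counts or more, and at 38 counts or fewer in the other 7, so every IgG library and no IgG+Mino library was in the high class.

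Of the 8 genes, Apln stood out by its agreement between libraries. It was higher in each of the 3 APB5 retinas than in any other retina, and it was the only member called when APB5+Mino was compared with APB5. That call, like every other call of that comparison, was lost when the replicate number was added as a block, where Apln had an edgeR adjusted p of 0.0641. Aplnr, Esm1, Kcne3, Plaur and Nid2 also had their highest mean in APB5, but most of that signal lay in replicate 3. For Mcam and Unc5b, replicate 3 held 42.2% and 38.9% of the summed APB5 level, and both APB5 groups of Mcam lay above all IgG libraries. In bulk retina, fewer endothelial cells and less RNA per cell cannot be told apart.

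**Figure D1:**
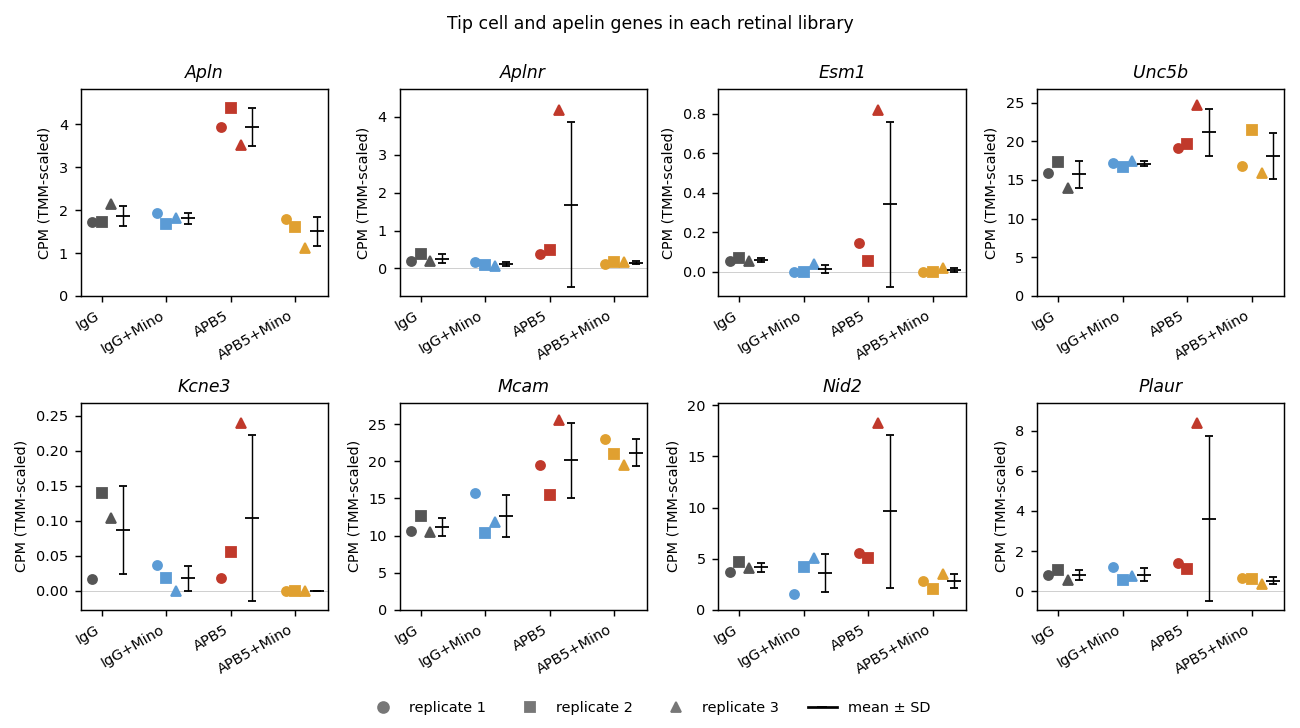
CPM (linear axis) of each of the 8 genes in the 12 libraries by group; symbols mark replicates 1 to 3, and the bar beside them gives the mean ± SD of the 3 libraries. The 3 APB5 libraries of Apln sit between 3.51 and 4.38 CPM, above all other libraries, while the APB5 values of Aplnr, Esm1, Kcne3, Nid2 and Plaur are spread out by replicate 3.

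Promoter sequence was matched for 6 of the 8 genes, by symbol, in RefSeq on GRCm38.p6. The 250 bases before the start site are shown for Apln, whose 3 APB5 libraries moved together, and for Esm1 and Plaur. The levels of Esm1 and Plaur had a Pearson correlation of 0.95 over 12 libraries, and of 0.61 without APB5 replicate 3. Capitals mark ACGTG or GCGTG, the core letters of the hypoxia response element, which differ in their first base and cannot share a site on 1 strand, and TGANTCA, the AP-1 element, each searched on both strands. The Apln window is chrX:48034854-48035103 on the minus strand, the Esm1 window is chr13:113209409-113209658 on the plus strand, and the Plaur window is chr7:24462233-24462482 on the plus strand.
Apln: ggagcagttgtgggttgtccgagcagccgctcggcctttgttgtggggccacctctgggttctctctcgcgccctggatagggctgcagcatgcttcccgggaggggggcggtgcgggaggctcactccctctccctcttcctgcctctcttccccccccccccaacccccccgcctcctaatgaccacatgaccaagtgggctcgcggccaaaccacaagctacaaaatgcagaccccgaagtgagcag
Esm1: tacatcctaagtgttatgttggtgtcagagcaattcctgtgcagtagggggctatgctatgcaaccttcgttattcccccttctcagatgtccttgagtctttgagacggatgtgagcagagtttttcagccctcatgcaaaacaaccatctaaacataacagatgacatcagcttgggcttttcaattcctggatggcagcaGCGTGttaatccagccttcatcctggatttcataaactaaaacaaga
Plaur: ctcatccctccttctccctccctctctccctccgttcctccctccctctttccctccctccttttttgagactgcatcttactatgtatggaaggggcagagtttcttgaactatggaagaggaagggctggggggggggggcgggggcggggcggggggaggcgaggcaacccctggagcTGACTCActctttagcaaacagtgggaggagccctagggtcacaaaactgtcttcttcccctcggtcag
The Apln window held none of the 3 motifs. The Esm1 window held GCGTG at 47 bases before the start, a motif found in 28.16% of the 32851 windows of this length. The Plaur window held TGACTCA at 69 bases before the start, and TGANTCA was found in 6.75% of all windows. Of the other matched genes, Unc5b held GCGTG at 57 bases, Kcne3 held ACGTG, found in 16.57% of windows, at 140 bases and TGANTCA at 37 bases before 1 of its 2 starts, and Mcam held none. Such a match describes letters in a window and not a bound site.

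Compared per kilobase of exon, Mcam and Unc5b were the most abundant members and Esm1 and Kcne3 the least. In IgG retinas the mean level was 3.10 CPM per kb for Mcam, 2.50 for Unc5b, 0.639 for Nid2 and 0.492 for Apln. It was 0.205 CPM per kb for Plaur, 0.0707 for Aplnr, 0.0256 for Esm1 and 0.0127 for Kcne3. The order of the 8 means was the same in all 4 groups. Kdr, the main VEGF receptor of endothelium, stood at 9.97 CPM per kb in the same IgG retinas, and Cldn5 at 10.3, both above all 8 members. Other endothelial genes, Pecam1 at 1.37, Cdh5 at 1.29 and Robo4 at 1.02 CPM per kb, were below Mcam and Unc5b.

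Apln lies on chromosome X (47114019 to 47123775 of GRCm39, minus strand) and no other annotated gene overlaps it. It encodes the secreted apelin precursor. Its level in IgG retinas was 1.73, 1.72 and 2.14 CPM in replicates 1 to 3, and in IgG+Mino retinas 1.94, 1.68 and 1.82 CPM. In APB5 retinas it was 3.92, 4.38 and 3.51 CPM, and in APB5+Mino retinas 1.79, 1.60 and 1.13 CPM. All 3 APB5 libraries were higher than the other 9, the remaining groups overlapped each other in part, and 2 of the APB5+Mino libraries were below every library of the IgG and IgG+Mino groups. Group means were 1.86 ± 0.242, 1.81 ± 0.128, 3.94 ± 0.435 and 1.51 ± 0.341 CPM (SD, n = 3) for IgG, IgG+Mino, APB5 and APB5+Mino.

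Between APB5 and IgG, the log2 fold change of Apln was 1.09 (SE 0.23), 2.13-fold higher, and edgeR's quasi-likelihood test gave a Benjamini-Hochberg adjusted p of 0.664. Calls required both an adjusted p of 0.05 or less and a difference of 1 or more on the log2 scale, and in this comparison 0% of the 20350 genes tested were called. An unadjusted p under 0.05 was found for 1472 genes (7.23%), Apln was number 32 of all genes by p, and DESeq2 called 87 genes (0.428%) and limma's voom 27 (0.133%). Apln was among those called by both, at an adjusted p of 0.00460 with DESeq2 and 0.0397 with voom. The exact two-sided permutation test gave p = 0.1, the smallest that 3 against 3 libraries allow.

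Between APB5+Mino and APB5, Apln was lower by 1.40 on the log2 scale (log2 fold change −1.40, SE 0.24, adjusted p = 0.0461 in edgeR's test with Benjamini-Hochberg adjustment). It was 1 of 337 called genes (1.66% of 20281 tested, and 0.819% called lower), and it was number 275 by p. Same-numbered libraries of these groups deviated together, and when the number was added as a block the log2 fold change of Apln was −1.42 and the adjusted p 0.0641, and no gene was called. The adjusted p was 0.00372 without APB5 replicate 3 and 0.0335 without APB5 replicate 2. It was 0.105 without APB5 replicate 1, and between 0.117 and 0.214 when any 1 APB5+Mino library was left out, in edgeR's test throughout.

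Apln is X-linked and the groups differed in Xist, so its level was also read within the high and low Xist classes. Among libraries with low Xist, the APB5 retinas had 3.92 and 4.38 CPM of Apln, the APB5+Mino retinas 1.79 and 1.60 CPM, and the IgG+Mino retinas 1.68 to 1.94 CPM. Among libraries with high Xist it was 3.51 CPM in APB5, 1.13 CPM in APB5+Mino and 1.72 to 2.14 CPM in IgG. In both classes APB5 had the highest level, but APB5 replicate 3 alone stood for APB5 in the high class. No IgG library was in the low class. IgG+Mino differed from IgG by −0.04 on the log2 scale (SE 0.22, edgeR adjusted p = 0.963). All IgG libraries had high Xist and no IgG+Mino library did, so minocycline and Xist class cannot be told apart there. When the log2 level of Xist was added to the model of all 12 libraries, the log2 fold change was 0.83 for APB5 against IgG (edgeR adjusted p = 0.0568) and −1.38 for APB5+Mino against APB5 (edgeR adjusted p = 0.00346).

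Apela, the gene for the second ligand of the apelin receptor, had a pattern like that of Apln at a smaller size. Its level was 3.60, 3.68 and 4.71 CPM in IgG, 4.02, 4.59 and 4.57 CPM in IgG+Mino, 6.07, 4.95 and 5.38 CPM in APB5, and 2.83, 2.98 and 3.08 CPM in APB5+Mino. The 3 APB5+Mino libraries were below all other libraries, and the 3 APB5 libraries were above all others. The log2 fold change was 0.46 (SE 0.21, edgeR adjusted p = 0.664) for APB5 against IgG, −0.90 (SE 0.17, edgeR adjusted p = 0.0461) for APB5+Mino against APB5 and −0.57 (SE 0.15, edgeR adjusted p = 0.0484) against IgG+Mino. All were under the fold threshold. With the replicate block, no gene had an edgeR adjusted p below 0.0641 in APB5+Mino against APB5. The span of an annotated noncoding gene on the same strand overlaps exons of Apela.

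Aplnr, the gene for the G protein-coupled receptor that both ligands activate, was much less abundant, and 1 library held most of its reads. It lies on chromosome 2 (84966569 to 84970267 of GRCm39, plus strand), and its exons overlap the span of the noncoding gene Lrrc55os on the same strand. Its level was 0.192, 0.385 and 0.207 CPM in IgG, 0.181, 0.0885 and 0.0742 CPM in IgG+Mino, 0.380, 0.475 and 4.18 CPM in APB5, and 0.107, 0.176 and 0.169 CPM in APB5+Mino. APB5 replicate 3, with 280 counts, was above the other 11 libraries, which had 4 to 26 counts, while APB5 replicate 1 lay within the IgG range. Replicate 3 held 83.0% of the summed APB5 level of Aplnr, and 29.7% of that of Apln.

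Between APB5 and IgG, the log2 fold change of Aplnr was 2.71 (SE 0.99, edgeR adjusted p = 0.664), and without APB5 replicate 3 it was 0.71 (SE 0.47, edgeR adjusted p = 0.901). Between APB5+Mino and APB5 it was −3.50 (SE 1.05, edgeR adjusted p = 0.0726), and the groups did not overlap. Without APB5 replicate 3 it was −1.50 (SE 0.44, edgeR adjusted p = 0.0369) and passed both thresholds. With the replicate block it was −2.78 (SE 0.76, edgeR adjusted p = 0.0842). IgG+Mino differed from IgG by −1.17 on the log2 scale, also without overlap, at an edgeR adjusted p of 0.585. It was filtered out when APB5+Mino was compared with IgG+Mino.

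**Figure D2:**
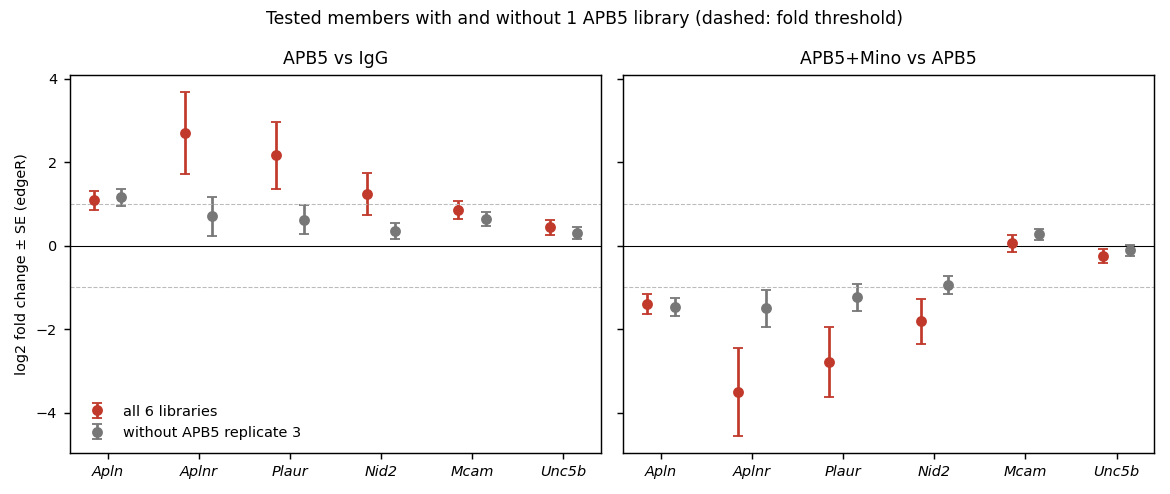
Log2 fold changes (vertical axis) ± SE from edgeR for the 6 members that passed the count filter, with all 6 libraries of each comparison and without APB5 replicate 3; dashed lines mark the fold threshold. Apln is nearly the same in both fits (1.09 and 1.16, −1.40 and −1.46), whereas Aplnr, Plaur and Nid2 move toward 0 without that library.

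Of 10 further genes of apelin signalling (peptide processing, G proteins, arrestin, downstream factors), all 10 were tested. In APB5+Mino against APB5, 0 were called higher and 2 lower, the flow-responsive transcription factors Klf4 and Klf2, which differed by −2.23 (SE 0.28) and −1.74 (SE 0.24), each at an adjusted p of 0.0430 in edgeR's test and of 0.0641 with the replicate block, where neither was called. The median of the 10 was −0.49, beside −0.02 over all genes tested. In APB5 against IgG none of the 10 was called by edgeR, as for all genes, and their median was 0.06. Klf4 was also lower in APB5+Mino than in IgG+Mino, with a log2 fold change of −1.81 (SE 0.27, edgeR adjusted p = 0.0125).

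Esm1 and Kcne3 passed the count filter in no comparison and are described by their counts. Esm1 encodes endocan, a secreted proteoglycan made by tip cells under VEGF. It lies on chromosome 13 (113346021 to 113354632 of GRCm39, plus strand) and overlaps Gzmk on the other strand. It had 3, 4 and 3 counts in IgG, 0, 0 and 2 in IgG+Mino, 8, 3 and 55 in APB5, and 0, 0 and 1 in APB5+Mino. The 55 counts of APB5 replicate 3 made up 80.5% of the APB5 level in CPM, and APB5 replicate 2 lay within the IgG range. The summed counts, 66 in APB5 and 10 in IgG, gave a ratio of 6.42 after scaling (95% exact interval 3.28 to 14.0, counting error only), and the exact permutation test gave p = 0.2. The 11 counts of the other 2 APB5 libraries gave a ratio to IgG of 1.72 (interval 0.663 to 4.52). With 1 count in APB5+Mino, the APB5 level was 59.7 times as high (interval 10.4 to 2394), without overlap of the groups. It was 19.9 times as high with the floor of 3 counts in place of that count. Without APB5 replicate 3 it was 16.0 times as high (interval 2.33 to 689). Between IgG+Mino and IgG, 2 against 10 counts gave a ratio of 0.208 (interval 0.0222 to 0.976), also without overlap.

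Kcne3 encodes an accessory subunit of voltage-gated potassium channels and lies on chromosome 7 (99825401 to 99836141 of GRCm39, plus strand), with 2 noncoding genes on the other strand. It had 1, 8 and 6 counts in IgG, 2, 1 and 0 in IgG+Mino, 1, 3 and 16 in APB5, and 0 in each of the 3 APB5+Mino libraries. IgG and APB5 overlapped, with 15 and 20 counts in all, a ratio of APB5 to IgG of 1.30 (95% exact interval 0.631 to 2.72). Of the 20 counts 16 came from replicate 3, and without it the ratio was 0.417 (interval 0.101 to 1.31). For APB5 over APB5+Mino, with its 0 counts, the lower limit of the exact interval was 4.47 with all libraries and 0.960 without APB5 replicate 3. Between IgG+Mino and IgG, 3 against 15 counts gave a ratio of 0.208 (interval 0.0386 to 0.735), with the groups overlapping. Of 8 channel partners, 7 were in the table (Kcne5 was not found by symbol), 6 were tested and none was called in any comparison. Kcnq1, the pore subunit best known to bind Kcne3, differed by 1.08 (SE 0.56) on the log2 scale between APB5 and IgG and by −1.07 (SE 0.59) between APB5+Mino and APB5, and by 0.19 and −0.17 without APB5 replicate 3.

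Plaur, the urokinase receptor, focuses plasmin formation at the leading edge of invading cells, leukocytes included. It lies on chromosome 7 (24161875 to 24175394 of GRCm39, plus strand) with no overlapping gene. Its level was 0.804, 1.09 and 0.570 CPM in IgG, 1.19, 0.549 and 0.761 CPM in IgG+Mino, 1.43, 1.10 and 8.35 CPM in APB5, and 0.644, 0.607 and 0.357 CPM in APB5+Mino. APB5 replicate 3 was above the rest, APB5 replicate 2 exceeded the highest IgG library only narrowly, and APB5+Mino did not overlap APB5. The log2 fold change was 2.17 (SE 0.80) for APB5 against IgG and −2.78 (SE 0.84) for APB5+Mino against APB5, at edgeR adjusted p of 0.664 and 0.0735. Without APB5 replicate 3 these were 0.62 (SE 0.34, edgeR adjusted p = 0.886) and −1.24 (SE 0.32, edgeR adjusted p = 0.0242), and the second then passed both thresholds. With the replicate block the second was −2.11 (SE 0.84, edgeR adjusted p = 0.148).

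Plau encodes urokinase, the protease that Plaur binds, and it was also highest in APB5 replicate 3. Its level was 0.892, 1.28 and 0.345 CPM in IgG, 1.48, 0.548 and 8.11 CPM in APB5, and 0.233, 0.157 and 0.338 CPM in APB5+Mino, so that APB5 overlapped IgG and lay above APB5+Mino. The log2 fold change of Plau in APB5+Mino against APB5 was −3.82 (SE 1.04, edgeR adjusted p = 0.0615), and without APB5 replicate 3 it was −2.06 (SE 0.50, edgeR adjusted p = 0.0183), which passed both thresholds. Of 10 listed partners 9 were tested, and 0 were called in either direction in each comparison of all libraries.

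Nid2 encodes a nidogen that links laminin to collagen IV in basement membrane. It lies on chromosome 14 (19801298 to 19861855 of GRCm39, plus strand), and its exons overlap the span of Rtraf on the other strand. Its level was 3.71, 4.64 and 4.11 CPM in IgG, 1.56, 4.14 and 5.10 CPM in IgG+Mino, 5.51, 5.09 and 18.3 CPM in APB5, and 2.81, 2.07 and 3.46 CPM in APB5+Mino. APB5 lay above IgG and above APB5+Mino in all libraries, with replicate 3 holding 63.3% of the APB5 sum. The log2 fold change was 1.24 (SE 0.51, edgeR adjusted p = 0.664) against IgG and 0.36 (SE 0.18) without replicate 3. In APB5+Mino against APB5 it was −1.81 (SE 0.54, edgeR adjusted p = 0.0719) and −0.93 (SE 0.21, edgeR adjusted p = 0.0147) without replicate 3, under the fold threshold. With the replicate block it was −1.57 (SE 0.33, edgeR adjusted p = 0.0642).

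Nid1, the other nidogen, had the same form, with 5.57, 5.53 and 16.9 CPM in APB5 and 3.71 to 4.39 CPM in IgG. All 10 listed basement membrane genes had a difference above 0 in APB5 against IgG, where 49.7% of all genes tested did, and none was called. Their median was 0.89. The summed level of the list was 723 CPM in APB5 replicate 3 and 264 and 282 CPM in the other APB5 libraries, against 221 to 245 CPM in IgG.

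Mcam encodes CD146, a cell adhesion molecule that binds laminin and is made by endothelium and pericytes. It lies on chromosome 9 (44045504 to 44054025 of GRCm39, plus strand), with the noncoding gene Gm10687 on the other strand. Its level was 10.6, 12.6 and 10.4 CPM in IgG, 15.7, 10.3 and 11.8 CPM in IgG+Mino, 19.5, 15.4 and 25.5 CPM in APB5, and 23.1, 21.0 and 19.6 CPM in APB5+Mino. Both APB5 groups were above IgG in all libraries, and they overlapped each other. Against IgG, APB5 had a log2 fold change of 0.86 (SE 0.22, edgeR adjusted p = 0.664). In APB5+Mino against IgG+Mino it was 0.75 (SE 0.16), 1.68-fold higher, at an adjusted p of 0.0317 in edgeR's test, which 8.09% of the 20049 genes tested also passed at any fold. No member was called there, beside 1.24% of all genes. Mcam was the only member higher there without overlap, as were 17.7% of all genes tested. With all 12 libraries in the model the adjusted p of Mcam was 0.1247 by edgeR. Left-out libraries gave an edgeR adjusted p of 0.00173 without IgG+Mino replicate 1 and of 0.0503 to 0.127 without any other.

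Mcam was not lower with minocycline in the APB5 groups. In APB5+Mino against APB5 its log2 fold change was 0.06 (SE 0.20, edgeR adjusted p = 0.849), and it turned to −0.045 when libraries were scaled by their size only. It was 0.087 with the replicate block (SE 0.19, edgeR adjusted p = 0.762). Apln, Aplnr, Nid2 and Plaur were lower in all APB5+Mino libraries than in all APB5 libraries, as were 22.8% of all genes tested. The untested Esm1 and Kcne3 were too, but their lowest APB5 libraries had only 3 and 1 counts, at or below the floor. Their highest APB5+Mino libraries had 1 and 0 counts. The difference between the members' fold changes was not tested.

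Unc5b encodes a netrin receptor that also binds Robo4 and restrains sprouting. It lies on chromosome 10 (60598372 to 60667396 of GRCm39, minus strand). Its level was 15.9, 17.4 and 14.0 CPM in IgG, 17.1, 16.7 and 17.5 CPM in IgG+Mino, 19.1, 19.7 and 24.7 CPM in APB5, and 16.8, 21.5 and 15.9 CPM in APB5+Mino. APB5 lay above IgG and IgG+Mino in all libraries and overlapped APB5+Mino. It differed by 0.44 (SE 0.17) on the log2 scale between APB5 and IgG, the smallest difference among the 6 tested members, and by −0.24 (SE 0.17) between APB5+Mino and APB5, with edgeR adjusted p of 0.664 and 0.322. With the replicate block the second was −0.24 (SE 0.18, edgeR adjusted p = 0.359). Of 9 guidance partners all were tested and none was called in any comparison. Robo4 was at 5.42 ± 0.236 CPM in IgG and 5.68 ± 1.29 CPM in APB5, and Ntn1, which encodes netrin-1, at 1.16 ± 0.126 and 1.44 ± 0.664 CPM (SD, n = 3).

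Read as a group, 6 of the 8 genes were tested in APB5 against IgG, and all 6 had a log2 fold change above 0, as did 49.7% of all genes tested, with a median of 1.16 beside −0.00. The median of the 6 was 0.63 without APB5 replicate 3, with all 6 above 0. The groups did not overlap for 5 of them, Apln, Unc5b, Mcam, Nid2 and Plaur, beside 7.79% of all genes tested that were higher without overlap. Without APB5 replicate 3, 0 of 6 were called, beside 0.101% of 20736 genes. In APB5+Mino against APB5, 1 of 6 was above 0, beside 48.5% of all genes, with a median of −1.61 beside −0.02. Of the 6, 1 was called, beside 1.66% of the 20281 genes tested. Without APB5 replicate 3 the median was −1.09 beside −0.01, and 3 were called, Apln, Aplnr and Plaur, beside 4.64% of the 20621 genes tested. In IgG+Mino against IgG, 0 of 6 were called (0.0298% of all genes), and only Aplnr and the untested Esm1 were lower without overlap, as 7.35% of all genes tested were. The comparisons share the APB5 or the IgG libraries, so they are not independent of each other.

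The interaction, whether the minocycline difference depended on the antibody, was above 0 for 0 of 6 tested members, beside 48.1% of 21228 genes, and called for 0, beside 0.0141%. With voom it was 0.041 for Aplnr and 0.18 for Mcam. For Apln it was −1.34 (SE 0.30, edgeR adjusted p = 0.131) and for Plaur −2.80 (SE 0.96, edgeR adjusted p = 0.200). DESeq2 called 2 members in the interaction, Apln and Plaur, at adjusted p of 0.00315 and 0.0492, among 395 genes called (1.86%). Voom called Apln at an adjusted p of 0.00479, among 1046 genes (4.93%). An unadjusted p under 0.05 in edgeR was found for 17.1% of all genes.

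Other genes of the tip cell programme behaved in more than 1 way. Of 34 further tip cell and sprouting genes 33 were tested, and 29 of them had a log2 fold change above 0 in APB5 against IgG, with a median of 0.64, where 49.7% of all genes were above 0 and their median was −0.00. When APB5 replicate 3 was left out, 26 were above 0 and the median was 0.15. The list summed to 1873 CPM in APB5 replicate 3 and to 893 and 984 CPM in the other APB5 libraries, against 761 to 945 CPM in IgG. Dll4, the Notch ligand that tip cells present, passed no test, with 0.37 (SE 0.21) in APB5 against IgG and 0.05 (SE 0.19) in APB5+Mino against APB5. Angpt2, the Tie2 ligand that loosens vessels, had 0.69 (SE 0.43) in APB5 against IgG and 0.00 without APB5 replicate 3. Kdr was at 114, 118 and 122 CPM in APB5 and at 76.2, 84.6 and 68.3 CPM in APB5+Mino. The difference was −0.64 on the log2 scale (SE 0.11, edgeR adjusted p = 0.0461, and at least 0.0641 with the replicate block). Called lower in APB5+Mino than in APB5 were Cd34, a sialomucin of tip cells, at −1.33 (SE 0.28) on the log2 scale, and Igfbp3, an IGF-binding protein, at −1.96 (SE 0.41), both lost with the replicate block (edgeR adjusted p of 0.0642 and 0.0641). Adm, which encodes adrenomedullin, was called higher in APB5+Mino than in IgG+Mino, by 1.99 (SE 0.46, edgeR adjusted p = 0.0368).

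Vegfa, the main upstream signal of tip cells, had mean levels of 164 ± 12.2, 153 ± 19.5, 191 ± 17.4 and 194 ± 7.28 CPM in IgG, IgG+Mino, APB5 and APB5+Mino retinas (SD, n = 3). Its log2 fold change was 0.23 (SE 0.14) in APB5 against IgG and 0.01 (SE 0.11) in APB5+Mino against APB5. Between APB5+Mino and IgG+Mino it was 0.35 (SE 0.10, edgeR adjusted p = 0.0682), without overlap of the groups. Of the 15 VEGF and hypoxia genes 14 were tested, and 1 was called in APB5+Mino against APB5. This was Ndufa4l2, a hypoxia-induced mitochondrial protein, at −2.81 (SE 0.19, edgeR adjusted p = 0.0203, and 0.0641 with the replicate block).

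Endothelial markers were set beside the 8 genes, which were chosen as markers of endothelial tip cells and as the apelin pair. In whole retina, the cells that gave the members' reads were not identified. The 15 endothelial genes summed to 201 to 233 CPM in IgG, 173 to 191 CPM in IgG+Mino, 219 to 293 CPM in APB5 and, in APB5+Mino, 169 to 181 CPM. Their median log2 fold change was 0.35 in APB5 against IgG and −0.88 in APB5+Mino against APB5, with 0 and 3 called, the latter Cldn5, Tie1 and Ramp2. Cldn5, the tight junction claudin of endothelium, was at 22.1, 17.5 and 22.3 CPM in APB5 and at 7.48, 6.01 and 5.96 CPM in APB5+Mino, a difference of −1.68 on the log2 scale (SE 0.16, edgeR adjusted p = 0.0417). Pecam1, the pan-endothelial adhesion molecule, differed by −0.02 (SE 0.11) in the same comparison. Of 6 tested genes of venous endothelium, where Aplnr is known to be made, Vwf and Slc38a5 were called lower in APB5+Mino than in APB5, at −1.77 (SE 0.20) and −1.92 (SE 0.32), and of 6 arterial genes 0 were called. The list medians were −0.87 and −0.61. With the replicate block, Cldn5, Tie1, Ramp2, Vwf and Slc38a5 had log2 fold changes of −1.05 to −1.88, each at an edgeR adjusted p of 0.0641, and none was called.

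Per 1000 counts of these 15 genes, Apln had 8.61, 8.07 and 9.19 counts in IgG and 10.5, 9.72 and 9.51 in IgG+Mino. It had 16.9, 20.0 and 11.98 counts in APB5 and 10.03, 8.85 and 6.66 in APB5+Mino. All 3 APB5 libraries were thus above the other 9 on this scale too, with APB5 replicate 3 the lowest of the 3. The difference from IgG was 0.88 on the log2 scale and that of APB5+Mino from APB5 was −0.92 (exact permutation p = 0.1 for each).

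On the same scale all 3 APB5+Mino libraries of Mcam were above the other 9, with 129, 116 and 115 counts per 1000 endothelial counts, beside 83.7, 70.6 and 87.1 in APB5, 52.5, 59.3 and 44.9 in IgG and 85.1, 59.6 and 61.9 in IgG+Mino. Unc5b had 93.9, 118 and 94.0 in APB5+Mino, and 82.1, 90.1 and 84.3 in APB5. Aplnr had 14.3 in APB5 replicate 3 and 1.63 and 2.17 in the other APB5 libraries, beside 0.890 to 1.81 in IgG. The exact permutation p was 0.1 for Mcam in APB5+Mino against each of APB5 and IgG+Mino. In CPM, Mcam differed by 0.06 on the log2 scale between APB5+Mino and APB5. The summed endothelial counts were 9014 to 9974 in APB5+Mino and 11980 to 19618 in APB5. In IgG+Mino they were 9769 to 10308, and in IgG 11502 to 13486. Per endothelial count, Apln, Unc5b and Mcam were higher in IgG+Mino than in IgG without overlap.

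**Figure D3:**
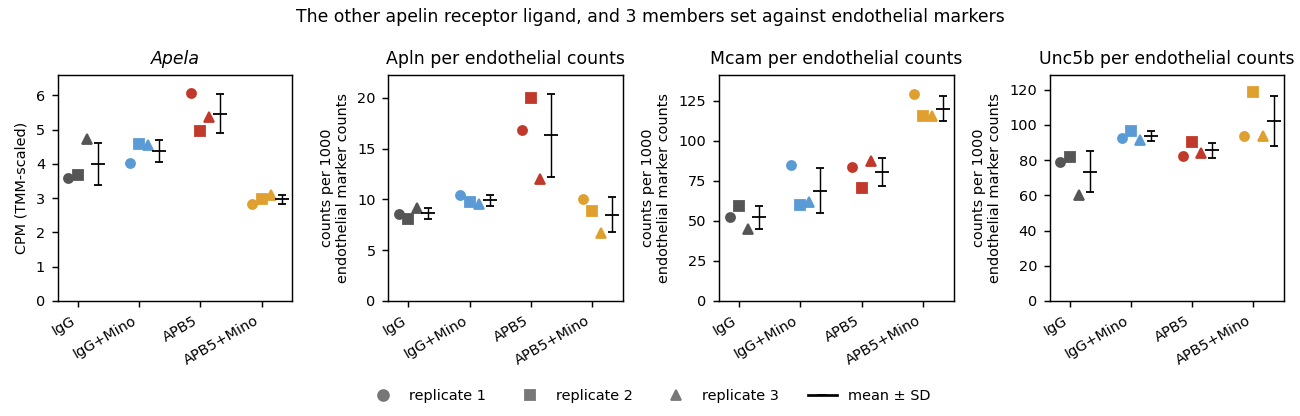
CPM of Apela, and counts of Apln, Mcam and Unc5b per 1000 counts summed over 15 endothelial markers, in the 12 libraries by group; symbols mark replicates and the bar the mean ± SD of 3 libraries. Apela in APB5+Mino (2.83 to 3.08 CPM) lies below all other libraries, and Mcam per endothelial count is highest in APB5+Mino (115 to 129). The endothelial counts themselves were lower in APB5+Mino than in APB5.

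Across the 12 libraries the members fell into strongly and weakly linked pairs, given as a description over libraries that share groups and sequencing. Aplnr, Esm1 and Plaur had Pearson correlations of log2 CPM of 0.97 (Aplnr with Esm1), 0.96 (Aplnr with Plaur) and 0.95 (Esm1 with Plaur). Without APB5 replicate 3 these were 0.69, 0.65 and 0.61 over 11 libraries. Apln with Aplnr went from 0.57 to 0.70, and Apln with Plaur from 0.62 to 0.71. Mcam was linked most closely to Unc5b, at 0.66 and 0.52, and with Nid2 it went from 0.19 to −0.38.

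**Figure D4:**
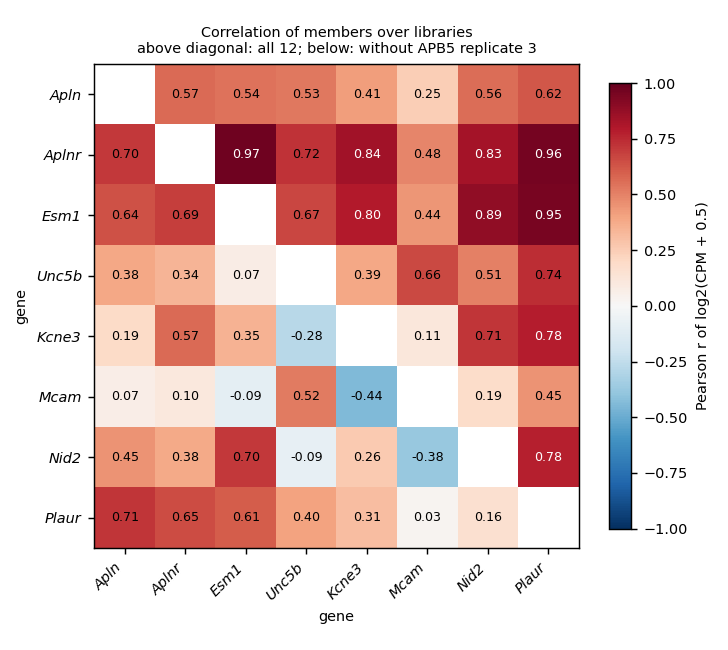
Pearson correlations of log2(CPM + 0.5) between the 8 genes, with rows and columns as genes and the colour and printed number giving r; values above the diagonal use all 12 libraries and values below it leave out APB5 replicate 3. The high values among Aplnr, Esm1 and Plaur (0.95 to 0.97) are lower without that library (0.61 to 0.69).

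The genes whose log2 CPM followed each member most closely over the 12 libraries, among genes with a mean of at least 1 CPM, differed between the members. For Apln they were Glycam1 (r = 0.95), Ndufa4l2 (r = 0.94) and 2900057B20Rik (r = 0.93), and without APB5 replicate 3 the values were 0.96, 0.94 and 0.93. Glycam1, a sialomucin ligand of L-selectin, differed by 4.32 on the log2 scale between APB5 and IgG and by −7.33 between APB5+Mino and APB5. In edgeR's test no gene was called in the first comparison, and none in the second with the replicate block. For Aplnr the closest were Il13ra1, Tagln and Col14a1 (r = 0.99 each), and for Esm1 they were Lgals3, Eln and Rftn1 (r = 0.99 each). For Plaur they were Tpm4 (r = 0.99), Spsb2 and Rell1 (r = 0.98 each). These 9 genes had r of 0.82 to 0.93 without APB5 replicate 3. For Nid2 the closest were Ptgds, Pon3 and Sod3 (r of 0.97 to 0.98), and for Kcne3 Wfdc2, Cd53 and Agpat4 (r of 0.94 to 0.96). For Mcam they were Pde3b, Tulp3 and Ppp1r3c (r of 0.93 to 0.96), and for Unc5b Fam83f, Eif2ak3 and Samd4 (r of 0.90 to 0.95).

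With the summed level of the 15 endothelial markers, Apln correlated by 0.75 over 12 libraries and by 0.72 without APB5 replicate 3. Mcam correlated with this sum by 0.19 and −0.26, and Unc5b by 0.47 and −0.04. With the summed microglia and macrophage markers, the correlation was 0.95 for Esm1, 0.92 for Aplnr and 0.91 for Plaur, and 0.79, 0.62 and 0.56 without that library. With the pericyte and smooth muscle markers it was 0.97, 0.96 and 0.94, and 0.85, 0.75 and 0.64 without it. With the rod markers it was −0.91, −0.94 and −0.87, and 0.10, −0.28 and 0.08 without it. Of these lists, Nid2 correlated most closely with the pigment epithelium markers, by 0.94 and by 0.81 without that library.

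The marker lists of these other cell types also differed between the groups. The median difference of the microglia and macrophage list was 1.78 on the log2 scale between APB5 and IgG and −3.32 between APB5+Mino and APB5, where 1 of its 14 genes, Cx3cr1, was called lower, at −3.98 (SE 0.63, edgeR adjusted p = 0.0447, and 0.0641 with the replicate block). In the same comparisons the medians were 0.85 and −1.32 for pericytes and smooth muscle, 1.20 and −2.33 for pigment epithelium, and −0.55 and 0.31 for rods. The first 3 lists had the signs of Apln, Aplnr, Unc5b, Nid2 and Plaur, as had the endothelial list (0.35 and −0.88). The rods had the opposite signs. These medians include APB5 replicate 3 and were not computed without it. In the other APB5 libraries the microglia sum was 57.9 and 70.4 CPM, beside 38.3 to 66.8 in IgG and 18.4 to 21.3 in APB5+Mino. The pericyte sum was 143 and 146 CPM, beside 112 to 127 and 82.5 to 87.7. For pigment epithelium it was 68.1 and 73.3, beside 53.5 to 77.0 and 27.4 to 48.5. For rods it was 48369 and 56137, beside 49067 to 69730 and 46624 to 50019. The part of these cell types in the members' levels was not tested.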

How the data were processed

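RNA from 12 retinal libraries (4 groups of 3) was compared. The counts are those the authors deposited: whole-number counts per gene, made per the labels with bcl2fastq 2.20 and the DRAGEN RNA pipeline on mm39 with the NCBI annotation. The DRAGEN version and the use of strand in counting are not given in the sources used here, so reads of overlapping genes cannot be told apart. The table repeats 3 of its sample columns with identical values, and a second deposited count table repeats it; each library was used once. Deposited result tables hold the authors' log2 fold changes, errors, p-values and group means and were not used. Groups and replicate numbers came from the labels.

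Each comparison was fitted on its own 6 libraries, and the interaction on all 12, with edgeR 4.0.16 in R 4.3.3 (filterByExpr with a minimum count of 10, TMM scaling, quasi-likelihood test, two-sided, Benjamini-Hochberg adjustment over all genes tested). DESeq2 1.42.0, voom with quality weights (limma 3.58.1), other scalings and filters, the replicate number as a block, Xist as a covariate and each library left out in turn were alternatives. The code was checked on simulated data. Between APB5+Mino and APB5 all 3 pairs of same-numbered libraries deviated together (correlations 0.135 to 0.290, others −0.211 to 0.0476). The blocked values of the tested members are therefore given for that comparison. Elsewhere the pairs were mixed, as between APB5+Mino and IgG+Mino (−0.00593 to 0.337, others −0.337 to 0.191). Exact permutation tests were two-sided. Ratios to the endothelial sum used 15 marker genes and a pseudocount of 0.5. Intervals cover counting error only.

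The 8 genes and 17 context lists were chosen with earlier results of these data known. Named genes were the members, 15 fixed context genes, up to 3 called genes per list, comparison and direction with the smallest p, and the 3 genes most correlated with each member. One of the context genes is not reported here. Gene positions are from GENCODE M39 on GRCm39, and lengths per kb are merged exons of that annotation. Promoters are RefSeq on GRCm38.p6.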

Additional observations from a re-analysis of the deposited data

How the results depend on the processing

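Among log2 fold changes of the members, 190 of the values with 1 library left out kept their direction and their side of the thresholds, 11 reversed, 5 newly passed and 4 no longer passed, and under the other alternatives the numbers were 248, 9, 21 and 2. For APB5 against IgG, 0 members were called, against 1 (Apln) with DESeq2, 1 (Apln) with voom and 3 (Aplnr, Nid2, Plaur) with the Xist covariate. The count of all genes called went from 0 of 20350 to 87 with DESeq2 (0.428%) and 27 with voom (0.133%). It was 5 without a count filter, 7 with all 12 libraries, 1066 with the Xist covariate and 0 to 21 with 1 library left out. For APB5+Mino against APB5, 1 member was called, against 0 with library size only, 4 with DESeq2, 3 with voom, 4 with all 12 libraries, 4 with the Xist covariate and 0 to 4 with 1 library left out. With the replicate block, 0 members and 0 genes were called there, and Apln was at −1.42 with an edgeR adjusted p of 0.0641. The block changed no other call of a member, though in the other comparisons same-numbered libraries did not all deviate together. With it, Mcam in APB5+Mino against IgG+Mino had an edgeR adjusted p of 0.00773. The 337 genes called (1.66% of 20281 tested) became 5 with library size only, 1531 with DESeq2, 1433 with voom and 568 without a filter. They became 1642 with all 12 libraries, 1799 with the Xist covariate, 977 at any fold and 0 to 1797 with 1 library left out. In IgG+Mino against IgG the 6 genes called included 4 sex-linked genes called higher and 1, Xist, called lower. The 6 became 23 with DESeq2, 124 with voom and 15 without a filter. They became 1 with at least 10 counts in every library and 0 with all 12 libraries or the Xist covariate. In APB5+Mino against IgG+Mino 1 member (Mcam) was called at any fold, and the genes called (1.24% of those tested) became 588 with voom, 0 with all 12 libraries or the Xist covariate, 1621 at any fold and 0 to 472 with 1 library left out. In the interaction 2 members were called with DESeq2, 1 with voom and 2 (Nid2, Plaur) with the Xist covariate. The 3 genes called (0.0141%) became 395 (1.86%), 1046 (4.93%) and 738 with these. Without a filter 34 genes were called, and 0 to 113 with 1 library left out. Some directions turned. Mcam in APB5+Mino against APB5 was −0.045 with library size only. In IgG+Mino against IgG, Plaur was −0.057 with library size only and −0.34 with voom, Apln was 0.032 and Nid2 0.0041 with voom, and Aplnr was 0.97 and Nid2 0.91 with the Xist covariate. In the interaction, Aplnr was 0.041 and Mcam 0.18 with voom. With 1 library left out, Mcam ranged from −0.11 to 0.28 in APB5+Mino against APB5, and in IgG+Mino against IgG Apln ranged from −0.10 to 0.070, Mcam from −0.027 to 0.30, Nid2 from −0.54 to 0.15 and Plaur from −0.34 to 0.28. Unc5b ranged from −0.079 to 0.16 in APB5+Mino against IgG+Mino, and Mcam from −0.27 to 0.11 in the interaction. Per endothelial count, on the log2 scale, Kcne3 in APB5 against IgG ranged from −0.94 to 0.49, Nid2 in IgG+Mino against IgG from −0.43 to 0.40, Plaur there from −0.056 to 0.47, and Nid2 in APB5+Mino against IgG+Mino from −0.71 to 0.12, and it was 0.045 with Pecam1, Cdh5 and Cldn5 as the denominator. In an alternative chosen after seeing the data, the Kcne3 count ratio of APB5 to IgG went from 1.30 to 0.417 without APB5 replicate 3, and that of Esm1 from 6.42 to 1.72. The cause of these changes was not tested. Depth limits Esm1 and Kcne3, which had at most 8 counts in every library but APB5 replicate 3.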
